A study of Mus musculus with 8 samples.

Results

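The 10 genes described here encode transcription factors of the core and naive pluripotency network: Pou5f1, Sox2, Nanog, Sall4, Esrrb, Klf2, Klf4, Tbx3, Tcfcp2l1 and Zfp42. They were taken by symbol from the deposited tables, where each has 1 RefSeq transcript, 10 of the 7820 transcripts with LIN28A CLIP counts, 10 of 16456 with poly(A) RNA counts and 10 of 7936 with ribosome footprint counts. All 8 libraries came from A3-1, an established mouse embryonic stem cell line grown in serum-containing DMEM with LIF. LIN28A CLIP, the sequencing of RNA that UV light had crosslinked to LIN28A, was done with 3 antibodies (monoclonals 35L33G and 2J3, and a polyclonal), 1 library each, in cells without siRNA. Poly(A) RNA was sequenced from untreated cells, from cells 48 h after an siRNA to luciferase (siLuc) and from cells 48 h after an siRNA to Lin28a (siLin28a), 1 library each. Ribosome-protected fragments (footprints) were sequenced from siLuc and siLin28a cells, 1 library each. The data thus describe 1 line, and no siRNA condition was repeated.

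POU5F1, SOX2 and NANOG bind together at enhancers of each other's genes and of many other stem cell genes, and hold embryonic stem cells undifferentiated. ESRRB, KLF2, KLF4, TBX3 and TCFCP2L1 support the naive state downstream of LIF and related signals, SALL4 is a zinc finger partner of the core factors, and ZFP42 (REX1) is a zinc finger protein used as a marker of the naive state. LIN28A is a cytoplasmic RNA-binding protein of the same cells, known for blocking let-7 maturation and for binding many mRNAs.

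The siRNA strands are shown because every siLin28a comparison rests on them. The capitals mark bases 2 to 8, the seed through which an siRNA strand can pair with unintended targets. The 19 paired bases are printed without their overhangs, and the labels do not say which strand guides.
siLuc strand 1: uCGAAGUAcucagcguaag
siLuc strand 2: cUUACGCUgaguacuucga
siLin28a strand 1: aUGUUCUUcccuuuuggcc
siLin28a strand 2: gGCCAAAAgggaagaacau

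The promoters of the factors were searched for the motifs of the factors themselves in the RefSeq windows of 300 bases around gene starts (build GRCm38.p6, both strands). Of the 10 genes 7 had a window. The motifs were the POU octamer ATGCAAAT, the SOX site CATTGT and a composite of the SOX site, 1 base of any kind and the octamer without its last base, which overlaps both. The composite occurred in 2 of 32851 windows, 0.00609%, and both belonged to Nanog, whose 2 listed starts share the site. The octamer occurred in 1.74% of all windows and, among the members, in Zfp42. The SOX site occurred in 12.6% of all windows and, among the members, in Nanog, Esrrb and Pou5f1. Letters of a motif do not show binding. The Nanog site (chr6:122707406-122707435, plus strand) and the Zfp42 site (chr8:43307177-43307206, shown on the strand of the gene, minus) are printed with the match in capitals.
Nanog composite: cagcttctTTTGCATTACAATGtccatggt
Zfp42 octamer: tctgaagaggcATTTGCATaactgagcaag

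Depth was similar across libraries, from 7698479 to 8027670 exon counts in CLIP, 7475174 to 9605641 in poly(A) RNA and 5980673 to 7570209 in footprints. Lin28a mRNA under siLin28a stood at 33.4% of its siLuc level and 25.4% of its untreated level, and Lin28a footprints at 25.7% of siLuc. Of 25 primed and lineage markers listed, 23 had an entry among the poly(A) counts, as did 6 of 12 fibroblast markers. A missing entry was not read as a level. Most primed and lineage markers were low, but not all. Of the 23 measured, 12 were under 1 RPKM in every library (RPKM, exon reads scaled by the authors to exon length and library total). Fgf5 and Cdx2 were at 0 in untreated cells. Dnmt3l, on the same list, had 168 RPKM untreated, 184 with siLuc and 99.7 with siLin28a. The summed level of these 23 markers was 271.0 RPKM untreated, 274.2 with siLuc and 217.5 with siLin28a. Under 1 RPKM throughout were 3 of 6 measured fibroblast markers, the collagen genes Col1a1 and Col1a2 among them. Fn1 (fibronectin), with 428, 381 and 499 RPKM, and Vim (vimentin), with 83.5, 143 and 158 RPKM, were as high as many of the factors, and the summed level of the 6 was 526.4, 538.0 and 663.0 RPKM. Whether these came from the stem cells or from other cells was not tested.

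All 10 factors were expressed in every poly(A) library. Pou5f1, the POU-domain factor of the core trio, had 874 RPKM untreated, 863 with siLuc and 1055 with siLin28a, and ranked between the 11th and the 14th of all transcripts. Sox2, its HMG-box partner, had 343 RPKM untreated, 449 with siLuc and 449 with siLin28a. Nanog, a homeodomain factor, had 287, 258 and 330 RPKM in the same order. The trio thus spanned a range of levels, with Pou5f1 above Sox2 and Sox2 above Nanog in each library. Klf2, a Krüppel-like factor, had 283, 221 and 303 RPKM (untreated, siLuc, siLin28a). Zfp42 had 230, 267 and 244 RPKM. Esrrb, an orphan nuclear receptor, had 229, 223 and 258 RPKM. These formed a middle tier in which the order changed between libraries. Tcfcp2l1, a Grainyhead-family factor, had 122, 109 and 130 RPKM. Sall4 had 68.8, 43.0 and 75.2 RPKM.

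Sall4 was thus lowest of the 10 with siLin28a. Lowest in untreated cells were Klf4, another Krüppel-like factor, with 45.9, 38.1 and 81.1 RPKM, and Tbx3, a T-box factor, with 42.2, 42.9 and 86.7 RPKM. Both were close to each other in each library and both stood highest with siLin28a. In untreated cells the 95% counting intervals overlapped for the neighbours Nanog and Klf2, Zfp42 and Esrrb, and Klf4 and Tbx3, so these were not ordered. With siLuc the overlapping neighbours were Zfp42 and Nanog, Esrrb and Klf2, and Sall4 and Tbx3, and with siLin28a Tbx3 and Klf4. Intervals in the text cover counting error only. In these bulk libraries, fewer cells that express a gene and less RNA per cell cannot be told apart.

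**Figure D1:**
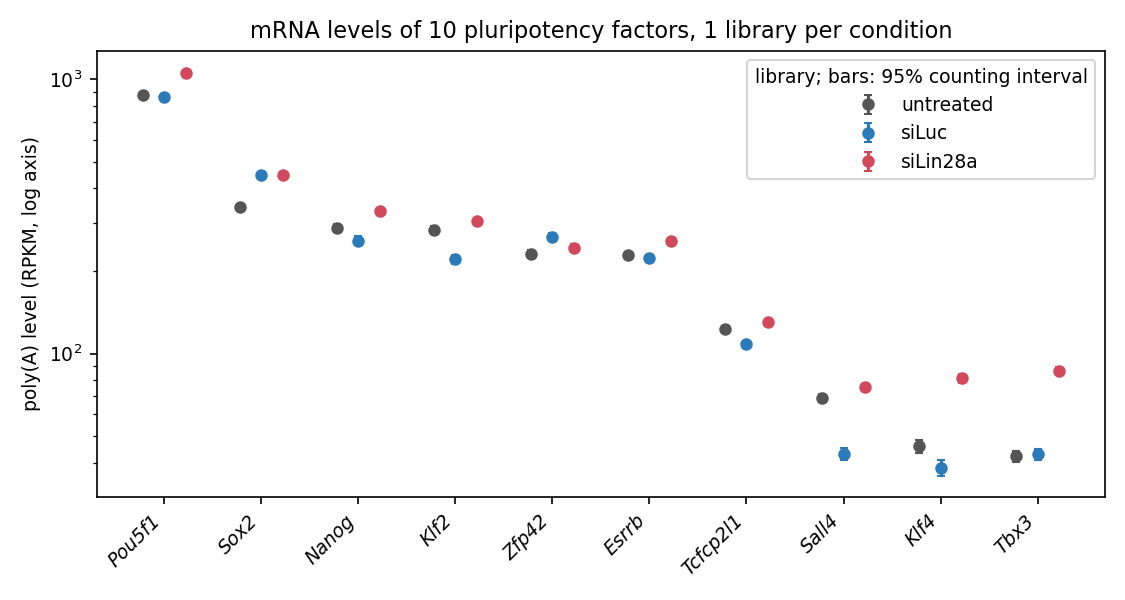
Deposited RPKM of the 10 factors on a log axis in the untreated, siLuc and siLin28a poly(A) libraries, 1 point per library with its 95% counting interval. Pou5f1 is highest in each library, and Klf4 and Tbx3 lie near 40 RPKM in untreated and siLuc cells and above 80 with siLin28a.

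LIN28A CLIP recovered these mRNAs unevenly. Relative to untreated poly(A) RNA, Zfp42, Sox2 and Tcfcp2l1 were over-represented, and the other 7 factors, Pou5f1 and Nanog among them, were under-represented. Klf2 and Nanog lay lowest, with CLIP shares about 5-fold below their share of poly(A) RNA. Ratios are log2 of CLIP over untreated exon counts after TMM scaling, given as the mean ± SD over the 3 antibodies (n = 3). They were tested with edgeR's quasi-likelihood test and adjusted over all transcripts by the Benjamini-Hochberg method, with a threshold of 0.05. By that test 3 of 10 factors were enriched, where 34.6% of all 7820 transcripts were, and 7 were depleted, where 33.3% of all were. The median factor lay at −0.78 and the median transcript at −0.03. No source says that the 3 CLIP libraries came from separate cultures, so each p-value covers only how much the 3 libraries differed, possibly for technical reasons, and the 1 input library was given the same spread.

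Among the enriched factors, Zfp42 had 634, 662 and 619 CPM (counts scaled to the library total) in the CLIP libraries (35L33G, 2J3 and polyclonal, the order used throughout) against 415 in untreated poly(A) RNA. All 3 antibodies were above the input, with a log2 ratio of 0.93 ± 0.05 (adjusted p = 5.82e-09, edgeR). Sox2 had 1147, 1099 and 1204 CPM against 842, a ratio of 0.76 ± 0.07 (adjusted p = 1.76e-08, edgeR). Tcfcp2l1 had 1312, 1349 and 1365 CPM against 1135, a ratio of 0.55 ± 0.04 (adjusted p = 3.85e-07, edgeR). The 3 lay between percentiles 67.8 and 77.2 of all transcripts, so many transcripts were enriched more.

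Of the depleted core factors, Pou5f1 had 351, 366 and 326 CLIP CPM against 1177 untreated, a log2 ratio of −1.45 ± 0.08 (adjusted p = 2.19e-12, edgeR). Its CLIP exon counts (2704, 2871 and 2619) were almost all coding counts (2697, 2868 and 2618). The Pou5f1 value is thus not like those of factors with counted 3′ UTR reads. Nanog had 66.1, 58.9 and 70.8 CPM against 390, a ratio of −2.27 ± 0.14 (adjusted p = 4e-12, edgeR), or 4.82-fold lower. Both genes have annotated pseudogenes in the RefSeq table, 7 for Pou5f1 and 2 for Nanog, so the assignment of their reads is less certain than for the others. Sox2 overlaps the long non-coding transcript Sox2ot, which had 37 to 54 poly(A) counts. Sall4 had 192, 187 and 177 CPM against 349, a ratio of −0.60 ± 0.05 (adjusted p = 5.25e-05, edgeR). Its call ended when the siLuc library served as the input, with 0.0856 (adjusted p = 0.537, edgeR), since Sall4 mRNA was lower in that library. For the other 9 factors the direction and the call were the same with either input.

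Among the depleted naive factors, Klf2 had 79.6, 75.8 and 90.7 CLIP CPM against 513 untreated, a log2 ratio of −2.34 ± 0.14 (adjusted p = 5.97e-13, edgeR), or 5.06-fold lower. Esrrb had 322, 320 and 321 CPM against 984, a ratio of −1.30 ± 0.01 (adjusted p = 8.70e-12, edgeR). The 3 antibodies gave nearly the same value for Esrrb. Klf4 had 74.2, 53.6 and 60.8 CPM against 140, a ratio of −0.85 ± 0.23 (adjusted p = 0.000479, edgeR). Tbx3 had 109, 98.0 and 112 CPM against 214, a ratio of −0.70 ± 0.10 (adjusted p = 0.000125, edgeR). Family members did not share a value: the Krüppel-like factors Klf2 and Klf4 differed by more than the SDs over antibodies of either, and Klf2 lay at the 2.8th percentile and Klf4 at the 25.4th. That difference between genes was not tested.

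A second yardstick was the coding sequence alone, where CLIP counts were compared with siLuc footprints. On that measure none of the factors was over-represented, and 9 of 10 had fewer coding CLIP reads than their ribosome occupancy would place there. Nanog and Klf2 were again lowest. The coding CLIP reads are part of the exon CLIP reads of the same libraries, so these measures are not independent. By edgeR's quasi-likelihood test 9 of 10 were lower, where 33.7% of 7181 transcripts were, and 0 were higher, where 33.6% were. DESeq2 also called 9 lower and 0 higher, and all 10 means lay below 0. The tenth, Tcfcp2l1, lay at −0.12 ± 0.05 (adjusted p = 0.428, edgeR). The CLIP cells had no siRNA and the footprint cells had siLuc, and only 1 footprint library enters.

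Nanog had 325, 294 and 393 coding CLIP reads against 5070 siLuc footprints, a log2 ratio of −3.54 ± 0.20 (adjusted p = 8.21e-15, edgeR), or 11.63-fold lower. Klf2 had 168, 166 and 156 against 2200, a ratio of −3.37 ± 0.07 (adjusted p = 6.92e-13, edgeR), or 10.34-fold lower. Sall4, the least depleted factor in exon reads, had 679, 675 and 583 against 3571, a ratio of −2.09 ± 0.14 (adjusted p = 2.00e-11, edgeR). Only Nanog and Klf2 lay lower on this measure. Tbx3, Klf4, Esrrb, Sox2 and Pou5f1 followed between −1.83 and −1.27. Zfp42 lay at −0.52 ± 0.23 (adjusted p = 0.00388, edgeR). Sox2, enriched in exon reads, stood at −1.60 ± 0.11 here (adjusted p = 9.17e-10, edgeR), so its exon and coding values had opposite signs.

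**Figure D2:**
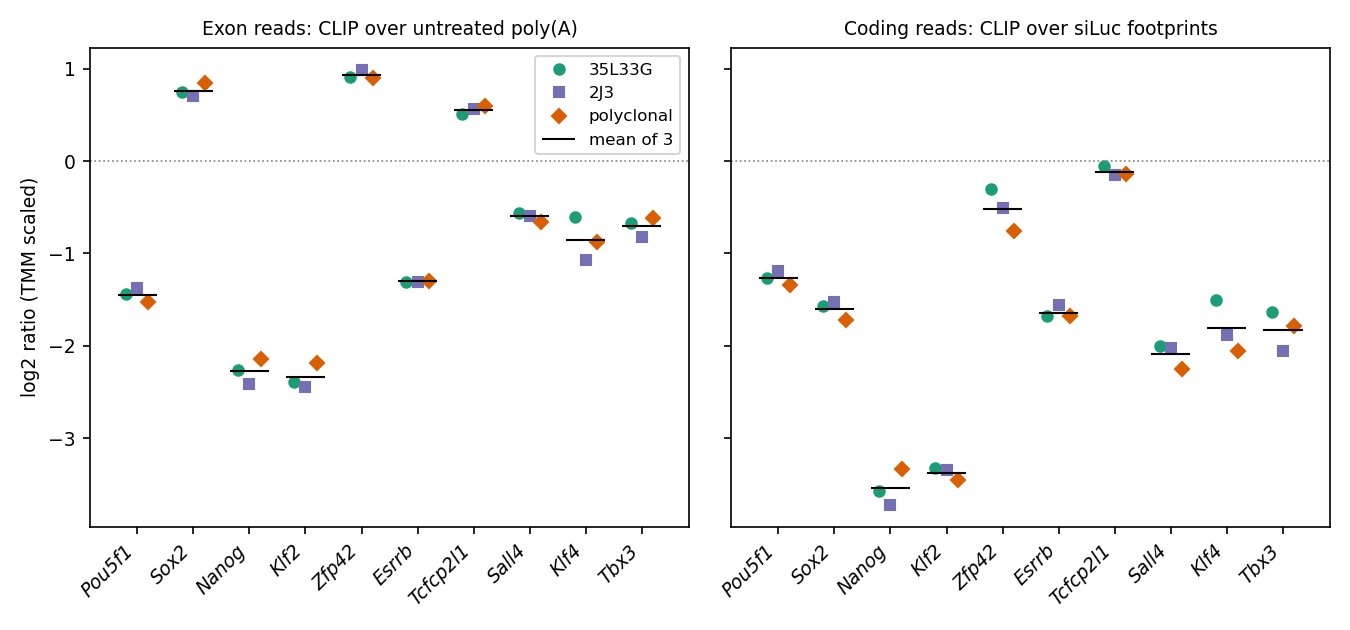
Log2 ratios after TMM scaling for each antibody, with the mean of the 3 as a bar, of exon CLIP reads over untreated poly(A) (left) and of coding CLIP reads over siLuc footprints (right). Zfp42, Sox2 and Tcfcp2l1 lie above 0 on the left, and none lies above 0 on the right, where Nanog (−3.54) and Klf2 (−3.37) are lowest.

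CLIP reads of most of these factors lay mainly in the 3′ UTR. In 8 of the 10 factors more CLIP reads lay in the 3′ UTR than in the coding sequence with every antibody, as in 24.5% of the 7658 transcripts with at least 20 such reads in each library. Nanog was an exception. The other was Pou5f1, for which almost no 3′ UTR reads were counted and no split is drawn. Set against poly(A) reads of the same regions, the 3′ UTR was favoured over the coding sequence in Sox2, Klf4 and Zfp42 by more than 10-fold, while Esrrb showed no such difference. Shares are 3′ UTR reads as a percent of coding plus 3′ UTR reads, and over all transcripts the median share was 29.5% to 30.3% in the 3 CLIP libraries.

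Sox2, whose gene is a single exon with 39.1% of its transcript coding, had 90.7%, 90.01% and 92.2% of CLIP reads in the 3′ UTR. In counts, 7515 to 8683 CLIP reads lay in its 3′ UTR and 735 to 834 in its coding sequence. Tcfcp2l1, with 15.5% of its transcript coding, had 86.7%, 88.1% and 88.3%. Both lay far above the median transcript with every antibody. Klf4 had 74.4%, 74.7% and 78.0%, on 283 to 361 reads in the 3′ UTR and 86 to 124 in the coding sequence. Klf2 had 72.6%, 72.0% and 78.5%. Zfp42 had 66.0%, 72.4% and 75.0%. For Zfp42 the antibodies differed by more than the counting intervals of 35L33G and the polyclonal.

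Tbx3 had 68.3%, 73.3% and 71.9% of its CLIP reads in the 3′ UTR. Esrrb had 62.7%, 59.8% and 63.6%. Sall4 had 52.5%, 53.4% and 58.4%, the most even split among the factors. Nanog had 27.5%, 30.7% and 26.4%, close to the median transcript. Its coding sequence held 294 to 393 CLIP reads and its 3′ UTR 123 to 141. For Pou5f1 0, 3 and 0 CLIP reads were counted in the 3′ UTR against 2618 to 2868 in the coding sequence, and its exon counts were 2704, 2871 and 2619, although only 78.7% of its transcript is coding. A count of 0 allows a share of up to 0.14% of the counted reads by the exact binomial interval. The authors' deposited ratio for its 3′ UTR is listed at 0, and how reads of that region were assigned could not be checked, so no split is drawn for Pou5f1.

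**Figure D3:**
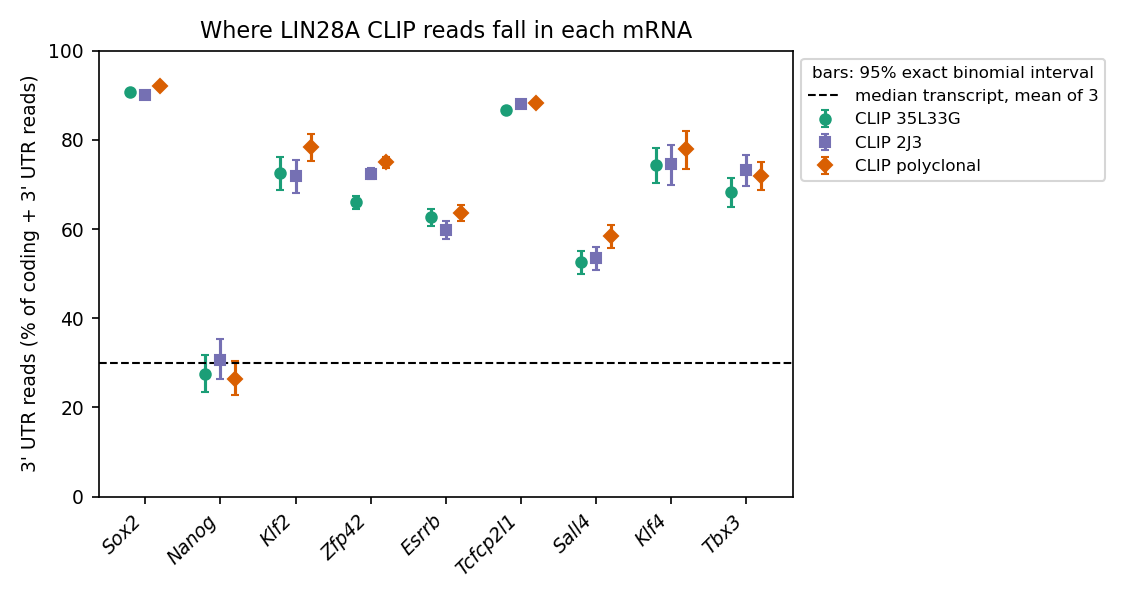
Percent of coding plus 3′ UTR CLIP reads that fell in the 3′ UTR for 9 factors, 1 point per antibody with its 95% exact binomial interval, and the median transcript as a dashed line (mean of the 3 antibodies' medians). Sox2 and Tcfcp2l1 lie above 85%, Nanog lies on the line, and Pou5f1, near 0, is not drawn.

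A share of reads reflects where mRNA reads fall as well as where LIN28A reads do, so the regions were also read against poly(A) RNA. The authors' deposited table gives, for each antibody, a log2 ratio of CLIP over poly(A) reads in the coding sequence and in the 3′ UTR. These ratios are not scaled for depth. The poly(A) library behind them carries no condition in its header, but its exon counts had a rank correlation of 0.986 across transcripts with the untreated library. A value of 0 stands in many rows that have reads and was taken as not given, which left 2989 of 7820 transcripts and 8 of the 10 factors with values for both regions. Pou5f1 and Nanog had a coding value only. The same poly(A) reads enter all 3 antibodies, so SDs cover the CLIP libraries only, and no test was made.

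In the authors' deposited ratios, the median transcript lay at −0.73 in coding sequence (5988 transcripts with a value) and −0.13 in the 3′ UTR (3456 transcripts). These sets differ, and percentiles of a region were taken within its own set. The mean of every factor except Tcfcp2l1 lay below the median in coding sequence. Sox2 had −2.56, −2.51 and −2.69 in coding sequence and 1.67, 1.62 and 1.82 in the 3′ UTR. Klf4 had −2.87, −3.23 and −3.39, and 1.18, 0.83 and 0.93. Zfp42 had −0.69, −0.90 and −1.12, and 2.63, 2.86 and 2.82. In Sox2 and Klf4 the coding part was thus low and the 3′ UTR high with every antibody, and in Zfp42 the 3′ UTR was high while the coding part lay near the median.

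In the same deposited ratios, Sall4 lay at −1.79 ± 0.12 (SD, n = 3) in coding sequence and −0.06 ± 0.06 in the 3′ UTR. Tbx3 lay at −2.15 ± 0.22 and −0.24 ± 0.10. The low exon values of these factors thus went with a low coding part and a 3′ UTR near the median transcript. Klf2 was low in both, at −4.04 ± 0.06 and −1.89 ± 0.23, with its coding value at percentile 0.5. Esrrb was low in both, at −1.70 ± 0.07 and −1.77 ± 0.06. Tcfcp2l1 lay near 0 in both, at −0.31 ± 0.05 and 0.18 ± 0.07. The coding value was −3.24 ± 0.21 for Nanog, at percentile 2.3, and −2.04 ± 0.07 for Pou5f1, at percentile 15.1.

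**Figure D4:**
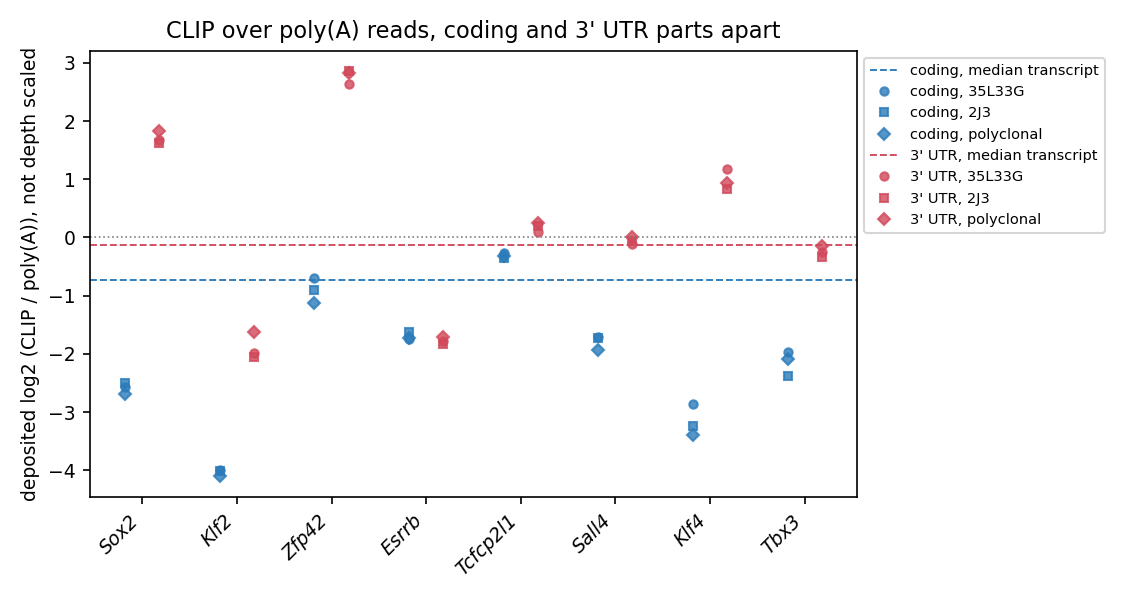
The authors' log2 ratios of CLIP over poly(A) reads, not scaled for depth, in the coding part (blue) and the 3′ UTR (red) of 8 factors, 1 marker per antibody, with the median transcript of each region as a dashed line. The parts are far apart for Sox2 (means −2.59 and 1.70) and Klf4 (−3.16 and 0.98) and together for Esrrb (−1.70 and −1.77).

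The shift between regions was taken as the 3′ UTR value minus the coding value of the authors' deposited ratios, in which depth cancels. Called here are transcripts whose shift was at least 2-fold in 1 direction with each of the 3 antibodies, a rule set after the tables had been seen. Of the 2989 transcripts 21.0% shifted toward the 3′ UTR, as did 6 of 8 factors, and 9.37% shifted toward coding sequence, as did 0 of 8. The median factor lay at 2.03 and the median transcript at 0.30.

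Sox2 had shifts of 4.23, 4.12 and 4.51, at percentile 99.3 of all transcripts. Klf4 had 4.04, 4.06 and 4.32, at percentile 99.1. Zfp42 had 3.32, 3.75 and 3.94, at percentile 98.5. Factors enriched in exon reads (Sox2, Zfp42) and a depleted one (Klf4) were thus together near the top. Klf2 shifted by 2.15 ± 0.28, Tbx3 by 1.90 ± 0.18 and Sall4 by 1.73 ± 0.18 (SD, n = 3). Tcfcp2l1 lay at 0.49 ± 0.11 and Esrrb at −0.07 ± 0.12, both within 2-fold.

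Under siLin28a, mRNA of the factors was mostly a little higher than in either control, with Klf4 and Tbx3 about 2-fold higher than with siLuc. No factor was 1.5-fold lower than siLuc, where 4.5% of transcripts were, or than untreated cells, where 5.07% were. The siRNA conditions have 1 library each, so there is no replicate check and no p-value, and values are log2 ratios of CPM with 95% counting intervals. Of the 10 factors 9 lay above both siLuc and untreated cells, where 34.5% of all 8813 transcripts did, and Zfp42 lay between its controls. The siLin28a library enters both comparisons. For Sox2 the excess over siLuc was 0.00 (−0.04 to 0.04), so that 1 of these 9 is not ordered at this depth. At least 2-fold higher than siLuc were 2 of 10 factors, where 1.65% of 8859 transcripts with at least 200 counts were (3.61% of 11217 with at least 50), and at least 1.5-fold higher 3 of 10, where 7.62% were. Against untreated cells 2 of 10 were at least 1.5-fold higher, where 7.43% of 9056 transcripts were. The median factor lay at 0.32 against siLuc and 0.19 against untreated, and the spread of all transcripts (scaled median absolute deviation) was 0.36 and 0.34.

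Klf4 had 140 CPM untreated, 116 with siLuc and 247 with siLin28a. Its log2 change was 1.09 against siLuc (0.98 to 1.20) and 0.82 against untreated (0.72 to 0.92). Tbx3 had 214, 218 and 441 CPM, a change of 1.01 against siLuc (0.93 to 1.10) and 1.04 against untreated (0.96 to 1.11). The controls of Tbx3 nearly coincided. Sall4 had 349, 218 and 382 CPM. Its change of 0.81 against siLuc (0.72 to 0.89) shrank to 0.13 against untreated (0.06 to 0.20), because siLuc itself lay at −0.68 against untreated (−0.76 to −0.59), the 2.7th percentile of 8743 transcripts. Klf2 showed the same order, with 513, 401 and 551 CPM and changes of 0.46 against siLuc and 0.10 against untreated.

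Of the core trio, Pou5f1 had 1177 CPM untreated, 1161 with siLuc and 1420 with siLin28a, a change of 0.29 (0.25 to 0.33) against siLuc and 0.27 against untreated. Nanog had 390, 349 and 448 CPM, with changes of 0.36 (0.29 to 0.43) and 0.20. Both lay within the spread of all transcripts or at its edge. Sox2 had 842, 1103 and 1104 CPM, so that siLuc and siLin28a coincided and both lay 0.39 above untreated. A separate tally of the poly(A) reads in the footprint table gave Sox2 a change of 0.43 against siLuc, so its mRNA change depended on how reads were counted. Esrrb and Tcfcp2l1 moved little, by 0.21 and 0.26 against siLuc and 0.17 and 0.09 against untreated. Zfp42 had 415, 480 and 439 CPM, with −0.13 (−0.20 to −0.07) against siLuc and 0.08 against untreated.

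Primed and lineage markers moved in both directions with siLin28a, more of them up than down. Their summed level was lowest there, but Dnmt3l, which fell to 99.7 RPKM, weighed most in that sum. The median marker was highest with siLin28a, at 0.37 RPKM untreated, 0.46 with siLuc and 0.96 with siLin28a. Of the 23 primed and lineage markers 15 lay above both controls in RPKM and 4 below both, most of them on few reads. Among the 8813 transcripts with at least 200 counts 34.5% lay above both, and the share below both was not computed. With at least 200 counts, 5 of the markers could be compared. Of these, 2 were at least 1.5-fold higher than siLuc and 1 lower, where 7.62% and 4.5% of all transcripts were. Against untreated cells 1 was higher and 2 lower, where 7.43% and 5.07% were. Nes, an intermediate filament of neural progenitors, had 1.43 RPKM untreated, 1.66 with siLuc and 3.47 with siLin28a. Otx2, a homeodomain factor of the primed state, had 33.9, 30.6 and 50.4 RPKM. Dnmt3l and Dnmt3b lay at −0.88 and −0.43 against siLuc on the log2 scale, and at −0.75 and −1.20 against untreated. Of genes singled out after their values were seen, Eomes, a T-box factor of mesendoderm, had 0.84, 1.87 and 3.98 RPKM, and Pax6, a neural factor, 0.34, 0.58 and 0.24 RPKM. Of the 6 fibroblast markers 2 lay above both controls and 3 below both. The part of these marker changes in the changes of the factors was not tested.

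Footprints of Klf4 were higher with siLin28a, as was its mRNA, and those of Zfp42 were lower. The other 8 factors lay within 0.4 of the siLuc level. Klf4 had 61.0 CPM with siLuc and 107 with siLin28a, a log2 change of 0.81 (0.64 to 0.98). Zfp42 had 337 and 212 CPM, a change of −0.67 (−0.77 to −0.57). At least 1.5-fold higher was 1 of 10 factors, where 14.4% of 6323 transcripts were, and at least 1.5-fold lower 1 of 10, where 26.9% were. Esrrb lay at −0.39 and Sox2 at −0.32. Tbx3 lay at 0.14 (0.01 to 0.27) and Pou5f1 at 0.08 (0.04 to 0.13).

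The direction of small footprint changes depended on the scaling. The median transcript lay at −0.21 by total counts, and 7 of 10 factors lay above it although 7 of 10 lay below 0. With TMM scaling, which moved values by 0.23, Nanog went from −0.17 to 0.062, Tcfcp2l1 from −0.21 to 0.02, Sall4 from −0.04 to 0.19 and Klf2 from −0.04 to 0.19. Klf4 stayed above 0 and Zfp42, Esrrb and Sox2 below 0 under both scalings.

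Ribosome density, footprints per mRNA, was lower with siLin28a for most factors relative to other transcripts. The density change was taken within the footprint table and set to 0 at the median of 7799 transcripts, which lay at −0.22 before. Of the 10 factors 9 lay below that median and Pou5f1 lay on it, at 0.00 (−0.06 to 0.06). At least 1.5-fold lower were 2 of 10, where 17.0% of all transcripts were, and 0 of 10 were 1.5-fold higher, where 18.6% were. The median factor lay at −0.39, and the spread of all transcripts was 0.62. With the counts of the poly(A) table in place of that tally the median factor lay at −0.29.

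Tbx3 had the lowest value, −0.83 (−1.003 to −0.66), at percentile 7.73 of all transcripts. Its mRNA had risen in level while its footprints went from 132 to 145 CPM. Sall4 followed at −0.81 (−0.93 to −0.69), with 472 and 460 CPM of footprints. For both genes footprints changed less than mRNA. For Sall4 the siLuc mRNA in the denominator was itself low, at −0.68 against untreated cells. Sox2 lay at −0.53 (−0.63 to −0.43), but at −0.10 with the counts of the poly(A) table. Nanog and Klf2 lay at −0.41, Esrrb at −0.37, Tcfcp2l1 and Zfp42 at −0.28 and Klf4 at −0.11 (−0.33 to 0.10). The siLuc libraries serve as control for each of these measures, and the density change contains the mRNA change with a minus sign, so these are not independent of each other.

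**Figure D5:**
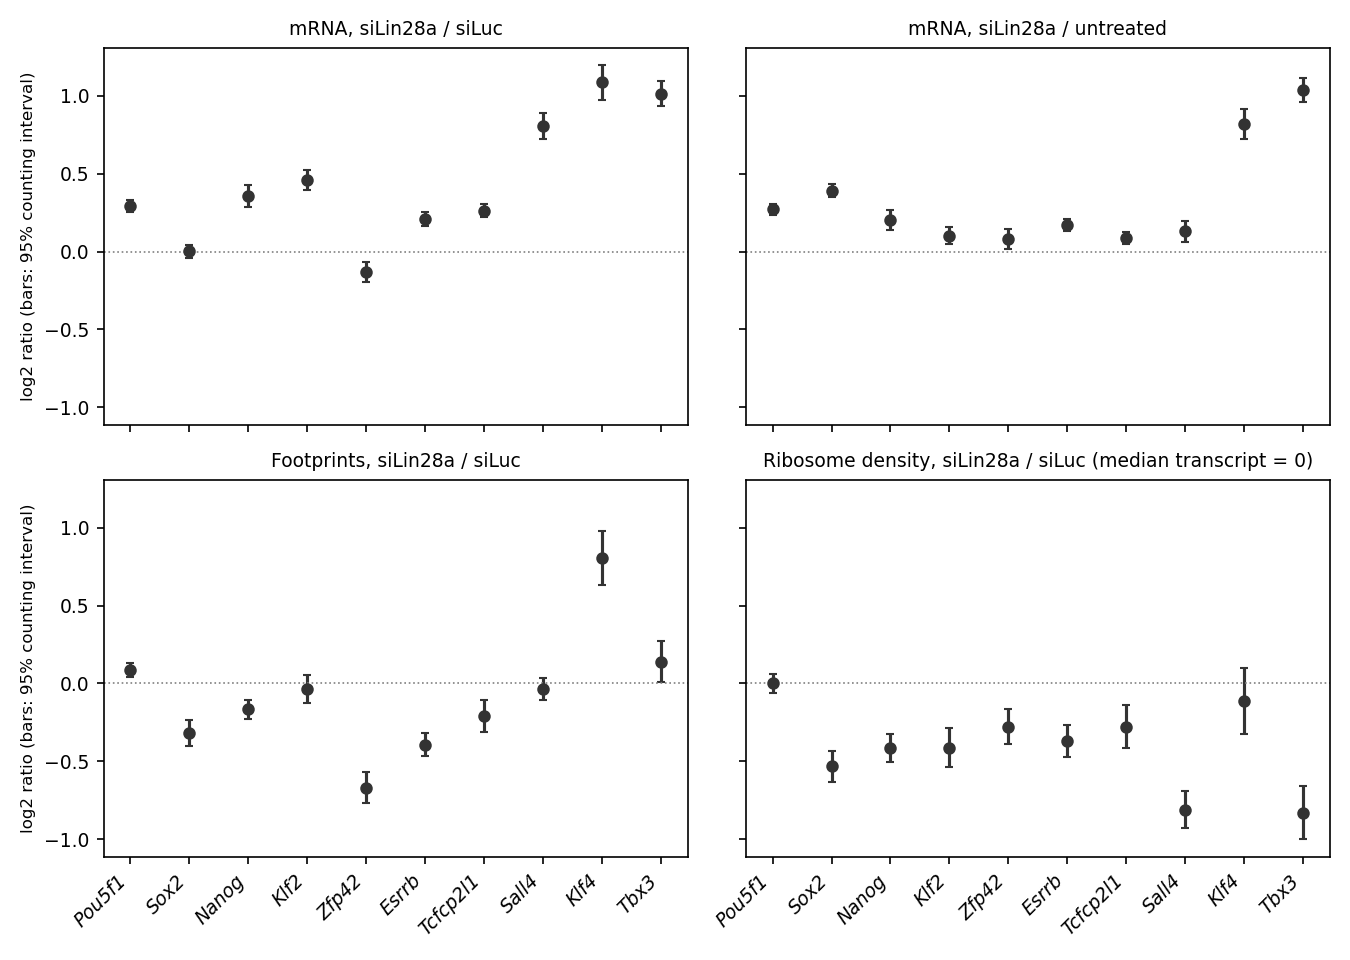
Log2 change with siLin28a in mRNA (against siLuc and against untreated), in footprints and in ribosome density (centred on the median transcript), 1 point per factor with its 95% counting interval, 1 library per condition. Klf4 and Tbx3 are highest in both mRNA panels, and Sall4 (−0.81) and Tbx3 (−0.83) are lowest in density.

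Within siLuc cells, the siRNA control, ribosome density also differed among the factors. Sall4 stood 1.82 above the median transcript on the log2 scale, with its siLuc mRNA at −0.68 against untreated cells, and Nanog 1.10 above it. In siLin28a cells Sall4 stood 0.98 above the median. These were the 2 factors at least 2-fold above, where 17.8% of 7495 transcripts were. With the poly(A) table's counts Sall4 stood at 1.75 and Nanog at 1.58. Klf2 also stood above the median with both tallies (0.54 and 0.18), and Klf4 (−0.36 and −0.29) and Sox2 (−0.17 and −0.78) below it. For Pou5f1, Esrrb, Tbx3, Tcfcp2l1 and Zfp42 the sign changed with the tally, so no direction is given. The largest gap was that of Tcfcp2l1, with 0.45 and −1.42. Its footprint-table tally was 0.205 of its poly(A)-table count, the lowest ratio among the factors, and coding sequence makes up 15.5% of its transcript.

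The transcripts whose profile over the 8 libraries was most like each core factor were looked up by the root mean square difference in log2 CPM, each transcript centred on its own mean, among 6265 transcripts with at least 50 counts in each library. For Pou5f1 these were Ogdhl (0.106), Csnk2b (0.115) and Tomm6 (0.125). For Sox2 they were Vezf1 (0.059), Brms1l (0.105) and Gtf2h1 (0.118). For Nanog they were Rbm42 (0.095), Uchl1 (0.219) and Exosc4 (0.246). The core factors were not each other's neighbours: Sox2 differed from Pou5f1 by 1.36 and from Nanog by 1.95. The nearest of the 10 factors to Pou5f1 was Klf2, at place 272 (0.364). To Sox2 it was Zfp42, at place 430 (0.309), and to Nanog it was Pou5f1, at place 169 (0.614).

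Other genes of the network were read from lists chosen by function. The shares of all transcripts beside which their counts stand are those given above: 34.6% enriched and 33.3% depleted in exon CLIP reads, 21.0% shifted toward the 3′ UTR and 9.37% toward coding sequence, and 18.6% higher and 17.0% lower in ribosome density. In coding CLIP reads over siLuc footprints 33.6% were higher and 33.7% lower. On that measure 19 of 24 target genes were lower and 2 higher, with a median of −2.01, against −1.73 for the 10 factors. Of 31 other regulators 15 were lower and 8 higher (median −0.4). Of 15 LIF and BMP genes 6 were lower and 7 higher (−0.48), and of 17 paralogs 8 and 1 (−1.01). Of 31 other pluripotency regulators tested, 10 were enriched and 16 depleted in CLIP over poly(A) RNA, with a median of −0.48, so the enriched share was near that of all transcripts. Tet1, a 5-methylcytosine dioxygenase, lay highest at 1.76 ± 0.02 (n = 3), followed by Jarid2, a Polycomb cofactor, at 1.62 ± 0.04. Foxd3 lay lowest at −1.97 ± 0.12, followed by Myc at −1.93 ± 0.15. The list thus reached both further up and nearly as far down as the 10 factors. Of 19 regulators with a regional shift, 7 shifted toward the 3′ UTR and 1 toward coding sequence. That 1 was Trim28, at −2.45, named after its value was seen. Tet1, at −0.01, had no shift in either direction. With siLin28a 12 of 31 were at least 1.5-fold lower in ribosome density and 1 was higher, with a median of −0.48. Foxd3 and Tcf7l1 had the highest mRNA changes against siLuc, 1.37 and 1.23, but 0.51 and 0.28 against untreated, so most of these differences lay in the siLuc library. Gbx2 and L1td1 had the lowest, −0.71 and −0.54 against siLuc and −0.21 and −0.04 against untreated.

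The target genes of the network, many of them secreted or surface proteins, differed from the factors in ribosome density. Of 24 target genes 16 were at least 1.5-fold higher in density with siLin28a and 2 lower, with a median of 0.64, against −0.39 for the factors. In CLIP 11 of 24 were enriched and 8 depleted, with a median of 0.23. Dppa3 lay highest at 2.71 ± 0.21 (n = 3) and Jam2, an adhesion molecule, next at 2.00 ± 0.14. Utf1, a chromatin-associated factor, lay lowest at −4.63 ± 0.45, followed by Upp1, uridine phosphorylase, at −1.74 ± 0.23. Of 16 with a regional shift 9 shifted toward the 3′ UTR, Utf1 by 3.07 and Lefty1 by 2.06, and 0 toward coding sequence. Upp1 and Jam2 had the highest mRNA changes with siLin28a, 0.93 and 0.78 against siLuc and 1.36 and 0.79 against untreated. Lefty1, a Nodal antagonist, had the lowest, −0.83 and −0.69, followed by Fbxo15 at −0.37 and −0.17.

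The inputs of the network were split. Among 15 LIF and BMP pathway genes 6 were enriched in CLIP and 7 depleted. Lifr and Il6st, which form the LIF receptor, lay highest at 2.69 ± 0.04 and 2.36 ± 0.04 (n = 3). Their ribosome density rose by 1.00 and 1.29 with siLin28a, with no replicate. Of the 15 genes of this list with a density change, 4 were at least 1.5-fold higher and 2 lower, with a median of −0.05. Id3, a BMP target, lay lowest at −2.75 ± 0.62 on 25 to 56 CLIP counts, and the kinase gene Mapk3 next at −2.25 ± 0.20. Id1 had an mRNA change of 1.03 against siLuc and 0.53 against untreated, and Smad5 of −0.40 and −0.54.

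In exon CLIP reads, paralogs of the 10 factors did not share their values. Of 20 tested 5 were enriched in CLIP and 9 depleted, with a median of −0.33. Klf10 lay at 1.23 ± 0.06 and Yy2, a retrogene relative of Zfp42, at 1.08 ± 0.31 (n = 3). Esrra lay at −2.41 ± 0.33 on 30 to 47 CLIP counts and Klf15 at −2.23 ± 1.02 on 20 to 76. Esrra thus lay below Esrrb, and Klf10 far above Klf2 and Klf4. For the 7 with a regional shift the median was 1.62, against 2.03 for the factors and 0.30 for all transcripts. Of these 7, 5 shifted toward the 3′ UTR, Klf10 by 2.54, and 0 toward coding sequence. The other 4, named after their values were seen, were Sox12, Yy1, Sall1 and Klf9, at 1.47 to 2.15. Sall3 and Sox15 had the highest mRNA changes with siLin28a, 1.40 and 1.31 against siLuc and 0.83 and 1.01 against untreated. Klf11 and Grhl2 had the lowest, −0.95 and −0.78 against siLuc and −0.81 and −1.26 against untreated.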

How the data were processed

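The authors deposited read counts per RefSeq transcript, RPKM for poly(A) RNA, and log2 ratios of CLIP over poly(A) counts by region, per the file headers. Transcript and coding lengths are deposited too. The submitters' processing notes name GSNAP, bedtools and mm9 with no role for each. Their versions and the rule for counting reads were not stated there. The members and lists were chosen with earlier results of these data known. Left out were 14 columns of per-sample values.

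CLIP tests used edgeR 4.0.16 (R 4.3.3) with TMM, filterByExpr and Benjamini-Hochberg adjustment, and DESeq2 1.42.0 as an alternative; log2 ratios per antibody used a pseudocount of 0.5 counts. The regional shift is the difference of the authors' deposited log2 ratios, without a test. siRNA ratios used total counts, a minimum of 200 counts over both libraries (density: 50 in each assay) and 95% counting intervals, computed in Python 3.11.15 with scipy 1.17.1. Intervals of shares are Clopper-Pearson. Scripts were tested on simulated data. Other genes are named where they were among the 2 highest or 2 lowest of a list by CLIP or mRNA ratio. Poly(A) reads were tallied separately in each table, so density was computed within the footprint table. Promoter windows are from RefSeq (GRCm38.p6), and no other genome sequence was used here. Alternatives were another tool, scaling, filter, input, tally, pseudocount and leaving out each antibody.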

Additional observations from a re-analysis of the deposited data

How the results depend on the processing

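The 3 enriched and 7 depleted factors kept their calls with DESeq2, total counts, no filter, the poly(A) exon counts deposited beside CLIP and without each antibody; with siLuc as input Sall4 moved to 0.0856. Their median was −1.14 by total counts, which moved the median transcript to −0.38 (1984 transcripts enriched, 3605 depleted, against 2702 and 2604), and −0.64 with siLuc as input. Without any 1 antibody 6 of 8 factors shifted toward the 3′ UTR, with a median of 1.93 to 2.11, as did 669 to 693 transcripts. The median mRNA change against siLuc was 0.45 in the footprint-table tally. With TMM, footprint changes turned for Nanog (0.062), Tcfcp2l1 (0.02), Sall4 and Klf2 (both 0.19, from −0.04) and the median factor (0.13, from −0.10). With a minimum of 50 counts 405 transcripts, not 146, were 2-fold above siLuc in mRNA and 145, not 39, below. The median density change was −0.61 uncentred and −0.29 with the poly(A) table's counts. With those counts siLuc density turned for Pou5f1 (0.59), Esrrb (−0.27), Tbx3 (−0.085), Tcfcp2l1 (−1.42) and Zfp42 (0.13), with a median of 0.022. No paired analysis was possible because the groups share only replicate number 1, given in accession order. Without a second siRNA library no siRNA difference has a replicate check, and Klf4, with 86 to 124 coding CLIP counts, is the least deeply covered factor. Causes of these dependences were not tested.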
